A study of Homo sapiens with 6 samples.

Results

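Histone genes with HIST names, mostly the replication-dependent ones, made up 73 of the 22984 sense-strand gene entries listed in each library. They were chosen by name, as every entry beginning with HIST1H, HIST2H, HIST3H or HIST4H, and the 73 entries carried 70 names because HIST2H2AA, HIST2H3 and HIST2H4 were each listed at 2 positions. GENCODE lists HIST1H2APS1, HIST2H2BA and HIST2H2BC among them as pseudogenes. By class there were 6 entries for H1, 18 for H2A, 20 for H2B, 14 for H3 and 15 for H4, of which 56 lay on chromosome 6, 16 on chromosome 1 and 1 on chromosome 12. This group was singled out after high RPKM values of histone genes with C1-14 had been seen in these same libraries. The comparison of C1-14 with DMSO is therefore a description and carries no test.

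Nascent RNA was captured by Bru-seq, in which cells are fed bromouridine and only the RNA made during the labelling period is sequenced. All 6 cultures were of HCT116, a human line established from a colorectal carcinoma. Each was labelled for 30 min and gave 1 library. The 4 h cultures were 2 with 0.01% DMSO (DMSO 1 and DMSO 2), 1 with 1 μM C1-27, a small-molecule inhibitor of the enzyme GSTO1, and 1 with 10 μM C1-14, which the study used as an inactive analogue. The remaining cultures received 1 μM C1-27 for 24 h or 10 nM siRNA against GSTO1 for 24 h (siGSTO1). No 24 h DMSO culture and no non-targeting siRNA culture was analysed here, so the effect of a 24 h treatment and the difference in time from the 4 h controls cannot be told apart. The doses of C1-14 and C1-27 also differed, and their values are given side by side without comparison.

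Histones H2A, H2B, H3 and H4 form the core particle around which DNA is wrapped, and H1 binds the linker DNA where it enters and leaves that particle. The replication-dependent genes are short, mostly without introns and clustered, and they are transcribed mainly in S phase, when new chromatin is assembled. Their transcripts end in a conserved stem loop in place of a poly(A) tail. The stem loop is bound by SLBP, and the co-activator NPAT drives transcription of the clusters.

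The sequences below show what sets these genes apart from other genes and what the classes share. In RefSeq, 54 of the 70 names had a promoter entry, read from 250 bases before to 50 bases after the gene start in GRCh38.p14. The motifs below were searched on both strands. The octamer ATTTGCAT was in 11 of 14 H2A promoters (78.6%) and 9 of 13 H2B promoters (69.2%), in 1 of 10 H3 promoters, and in 0 of 6 H1 and 0 of 11 H4 promoters, against 1.77% of all 35116 promoters. The H3 promoter with the octamer, that of HIST1H3D, is the same stretch as that of HIST1H2AD and is counted in both classes. TATAAA was in 36 of 54 (66.7%), against 11.5% of all promoters. CCAAT was in every H1, H2A, H2B and H3 promoter and in 3 of 11 H4 promoters, or 46 of 54 in all (85.2%), against 34.6% of all promoters. The first sequence is the stretch between the divergent genes HIST1H2BJ and HIST1H2AG, at chr6:27132793-27133042 (plus strand), and it is shown because HIST1H2AG had the largest fold with C1-14 against the DMSO mean among the histone genes that passed the filter. The others are the 120 bases before the starts of HIST1H1C (chr6:26056471-26056590, minus strand), HIST1H1E (chr6:26156209-26156328, plus strand) and HIST1H4B (chr6:26027284-26027403, minus strand), the most transcribed linker genes and the H4 gene that moved little. Capitals mark the octamer, CCAAT and TATAAA on either strand, and in the first sequence TATAAA overlaps its own reverse complement.
HIST1H2AG: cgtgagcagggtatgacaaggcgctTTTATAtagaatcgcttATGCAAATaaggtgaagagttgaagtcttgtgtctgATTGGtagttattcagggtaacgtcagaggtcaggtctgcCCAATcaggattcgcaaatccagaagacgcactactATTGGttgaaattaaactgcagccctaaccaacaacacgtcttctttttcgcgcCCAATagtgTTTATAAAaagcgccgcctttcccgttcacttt
HIST1H1C: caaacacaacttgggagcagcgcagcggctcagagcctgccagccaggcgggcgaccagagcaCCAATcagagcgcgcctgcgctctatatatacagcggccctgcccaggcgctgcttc
HIST1H1E: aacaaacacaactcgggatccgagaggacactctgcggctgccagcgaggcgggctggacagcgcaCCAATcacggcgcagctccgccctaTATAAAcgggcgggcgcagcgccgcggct
HIST1H4B: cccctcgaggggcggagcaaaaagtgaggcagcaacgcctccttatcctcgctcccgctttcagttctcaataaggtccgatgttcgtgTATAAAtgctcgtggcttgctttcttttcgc
The first window holds 1 octamer and several CCAAT boxes between the paired genes, both linker windows hold a single CCAAT box, and the HIST1H4B window holds neither. A match is a description of the letters and not a measured binding site.

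In GENCODE transcripts (GRCh38), 67 of the 70 names were found, and 24 names had a stem of 6 bases around a loop of 4 bases in a transcript, with 1 to 1917 bases of the model after it. The stem and loop letters were GGCTCT with TTTC in 13 names, GGCTCT with TTTA in 5, GGCCCT with TTTC in 5 and GGCCCT with TTTT in 1, and all with GGCCCT were H4 genes. The search took only stems that begin with GG and loops that begin with TTT, so these letters were set in advance and other sites were not looked for. A transcript model that stops at the coding sequence cannot show the site. The models of HIST1H2AC, HIST1H2BF and HIST1H4E run on for 1114, 732 and 1022 bases past the site, and those of HIST1H4B and HIST4H4 for 86 and 169 bases. The sites below are shown as examples of the letters in H2A, H2B and H4, with the stem and loop in capitals, at chr6:26124664-26124689 (plus strand), chr6:26199963-26199988 (plus strand), chr6:26204996-26205021 (plus strand), chr6:26026896-26026921 (minus strand) and chr12:14770719-14770744 (minus strand), in that order.
HIST1H2AC: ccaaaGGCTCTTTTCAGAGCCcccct
HIST1H2BF: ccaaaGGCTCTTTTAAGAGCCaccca
HIST1H4E: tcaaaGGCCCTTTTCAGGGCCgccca
HIST1H4B: ccaatGGCCCTTTTCAGGGCCgccca
HIST4H4: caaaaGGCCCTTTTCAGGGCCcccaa
The 3 H4 sites have the same stem and loop and differ in the flanking bases, and the H2A and H2B sites differ from each other in the loop.

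The deposited values were expected read counts per gene and strand and RPKM, reads scaled to gene length in kb and to the mapped reads of the library. Libraries held 18112861 to 36841146 sense counts, and the histone genes held 3495 to 12227 of them, or 0.0110% to 0.0447%. Of the 73 entries, 20 were at 0 in every library, 9 were above 0 but under 10 counts in every library, and 44 had 10 counts or more in some library. The 44 were 3 of the 6 H1, 12 of the 18 H2A, 13 of the 20 H2B, 7 of the 14 H3 and 9 of the 15 H4 entries. Most were short, with 67 entries counted over 1000 bp or less and a median of 462 bp. A count of 0 allowed at most 3 counts, or an RPM (reads-per-million mapped reads) of 0.0652 to 0.128 depending on the library, for counting error only. Of 11 epithelial markers, 5 were above 0.5 RPKM in all libraries, namely EPCAM, KRT8, KRT18, KRT19 and CLDN7. CDH1, CLDN4 and ELF3 were above 0.5 RPKM in some libraries only, and CDX1, LGALS4 and VIL1 were at or near 0. All 11 of 11 markers of other cell types were at or under 0.5 RPKM in all libraries. GSTO1 itself was at 3.51 and 3.72 RPKM with DMSO and at 2.70 RPKM with siGSTO1, a fold of 0.747 that did not pass edgeR's quasi-likelihood test (adjusted p = 0.314).

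Summed over all 73 entries, histone RPM was 177 in DMSO 1, 89.0 in DMSO 2, 353 with C1-14, 160 with siGSTO1, 90.4 with C1-27 at 4 h and 91.9 with C1-27 at 24 h. C1-14 was above every other library. DMSO 1 and siGSTO1 formed an intermediate pair, and DMSO 2 and both C1-27 libraries lay close together at the bottom. The DMSO cultures thus differed from each other by 1.99-fold, and the side on which most treatments fell depended on which of them was the control. A change in the share of cells in S phase and a change in histone RNA made per cell cannot be told apart in bulk cultures.

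**Figure D1:**
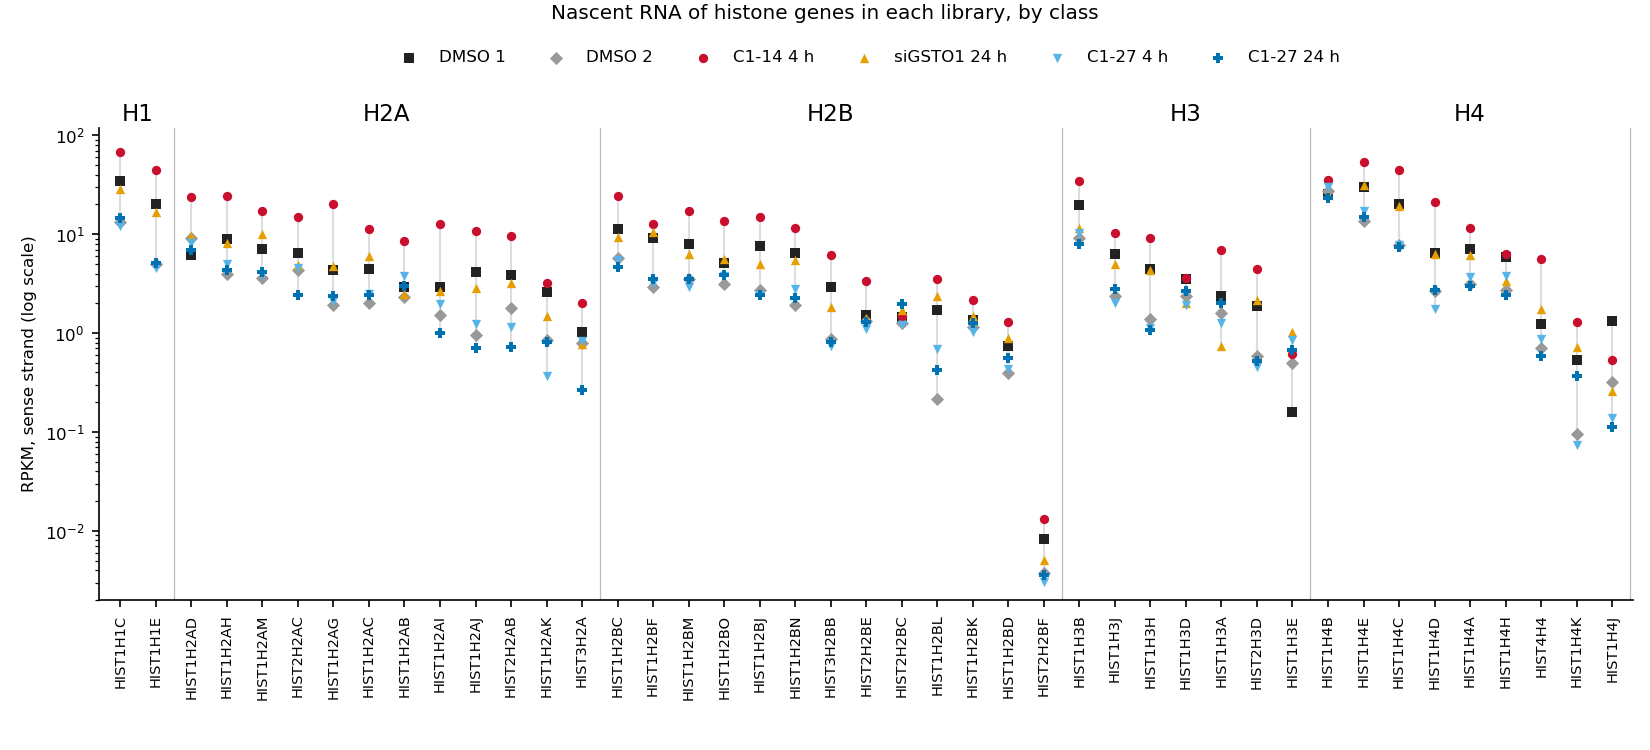
RPKM on the sense strand (log scale) of each histone gene with 10 counts or more in some library and above 0 in all, grouped by class, with 1 point per library and no replicates for the treatments. Of the 44 genes with 10 counts or more, HIST1H1T, at 0 in DMSO 2, is not drawn. Over all 44, C1-14 is the highest of the 6 in 41, and DMSO 1 is above DMSO 2 in 41.

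The same order of libraries was seen gene by gene. Of the 44 entries with 10 counts or more, 41 had their highest RPKM with C1-14, and the exceptions were HIST2H2BC, HIST1H3E and HIST1H4J. In 34, DMSO 1 and siGSTO1 were both above DMSO 2 and both C1-27 libraries. C1-27 at 4 h was within 1.4-fold of DMSO 2 in 35 entries and of DMSO 1 in 8, and C1-27 at 24 h was within 1.4-fold of DMSO 2 in 34 and of DMSO 1 in 10. With siGSTO1 the reverse held, with 29 entries within 1.4-fold of DMSO 1 and 13 of DMSO 2. The labels name no batch that these libraries share.

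Fold changes were the treated RPKM over the mean of both DMSO cultures, for genes above 300 bp with a mean RPKM above 0.5, and a gene was counted at 1.4-fold or more. The DMSO cultures set the scale of the spread. Between them, 33 of 40 histone genes that passed the filter were at least 1.4-fold lower in DMSO 2 and 1 was higher, where 16.3% of all 7825 genes were lower and 2.84% higher. With C1-14, 37 of 41 were higher and 1 was lower, against 3.71% higher and 1.01% lower of all 7784 genes. With siGSTO1, 12 of 42 were higher and 3 lower, against 10.5% and 6.48% of all genes. With C1-27 at 4 h, 2 of 39 were higher and 20 lower, against 0.457% and 2.22%, and at 24 h 2 of 40 were higher and 26 lower, against 3.23% and 3.49%.

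Counts against each DMSO culture alone showed which of these held for both. Past 1.4-fold against DMSO 1 and against DMSO 2, 35 of 41 histone genes were higher with C1-14 and 0 lower, where 1.98% of all genes were higher and 0.0899% lower. Only 3 of 42 were higher and 1 lower with siGSTO1 (all genes, 6.49% and 3.29%), 1 higher and 3 lower with C1-27 at 4 h (0.143% and 0.235%), and 0 higher and 4 lower with C1-27 at 24 h (1.89% and 0.897%). The 1 higher with C1-27 at 4 h was HIST1H3E, which is also among the 3 higher with siGSTO1. Its DMSO mean was 0.328 RPKM, so it passed the filter only through the treated values. HIST1H4K, at a DMSO mean of 0.317 RPKM, entered the C1-14 count of higher genes in the same way. The median fold of the histone genes with C1-14 was 2.12 against DMSO 1 and 4.403 against DMSO 2. The corresponding medians were 0.905 and 2.00 with siGSTO1, 0.522 and 1.04 with C1-27 at 4 h, and 0.423 and 1.01 with C1-27 at 24 h. With the same filter and DMSO 1 alone as control, 35 histone genes were higher and 1 lower with C1-14 (all genes, 4.33% and 6.55%), 4 and 9 with siGSTO1 (9.02% and 9.01%), 1 and 30 with C1-27 at 4 h (2.19% and 11.2%), and 1 and 29 at 24 h (5% and 9.56%). With DMSO 2 alone, the numbers were 39 and 0 with C1-14 (7.79% and 0.193%), 29 and 1 with siGSTO1 (18.2% and 7.53%), 4 and 3 with C1-27 at 4 h (0.626% and 0.417%), and 3 and 4 at 24 h (7.16% and 2.18%). Most C1-27 values were thus lower than DMSO 1 and near DMSO 2, and most siGSTO1 values near DMSO 1 and higher than DMSO 2. All of these comparisons share the same DMSO cultures, so a like direction in several treatments is not independent.

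**Figure D2:**
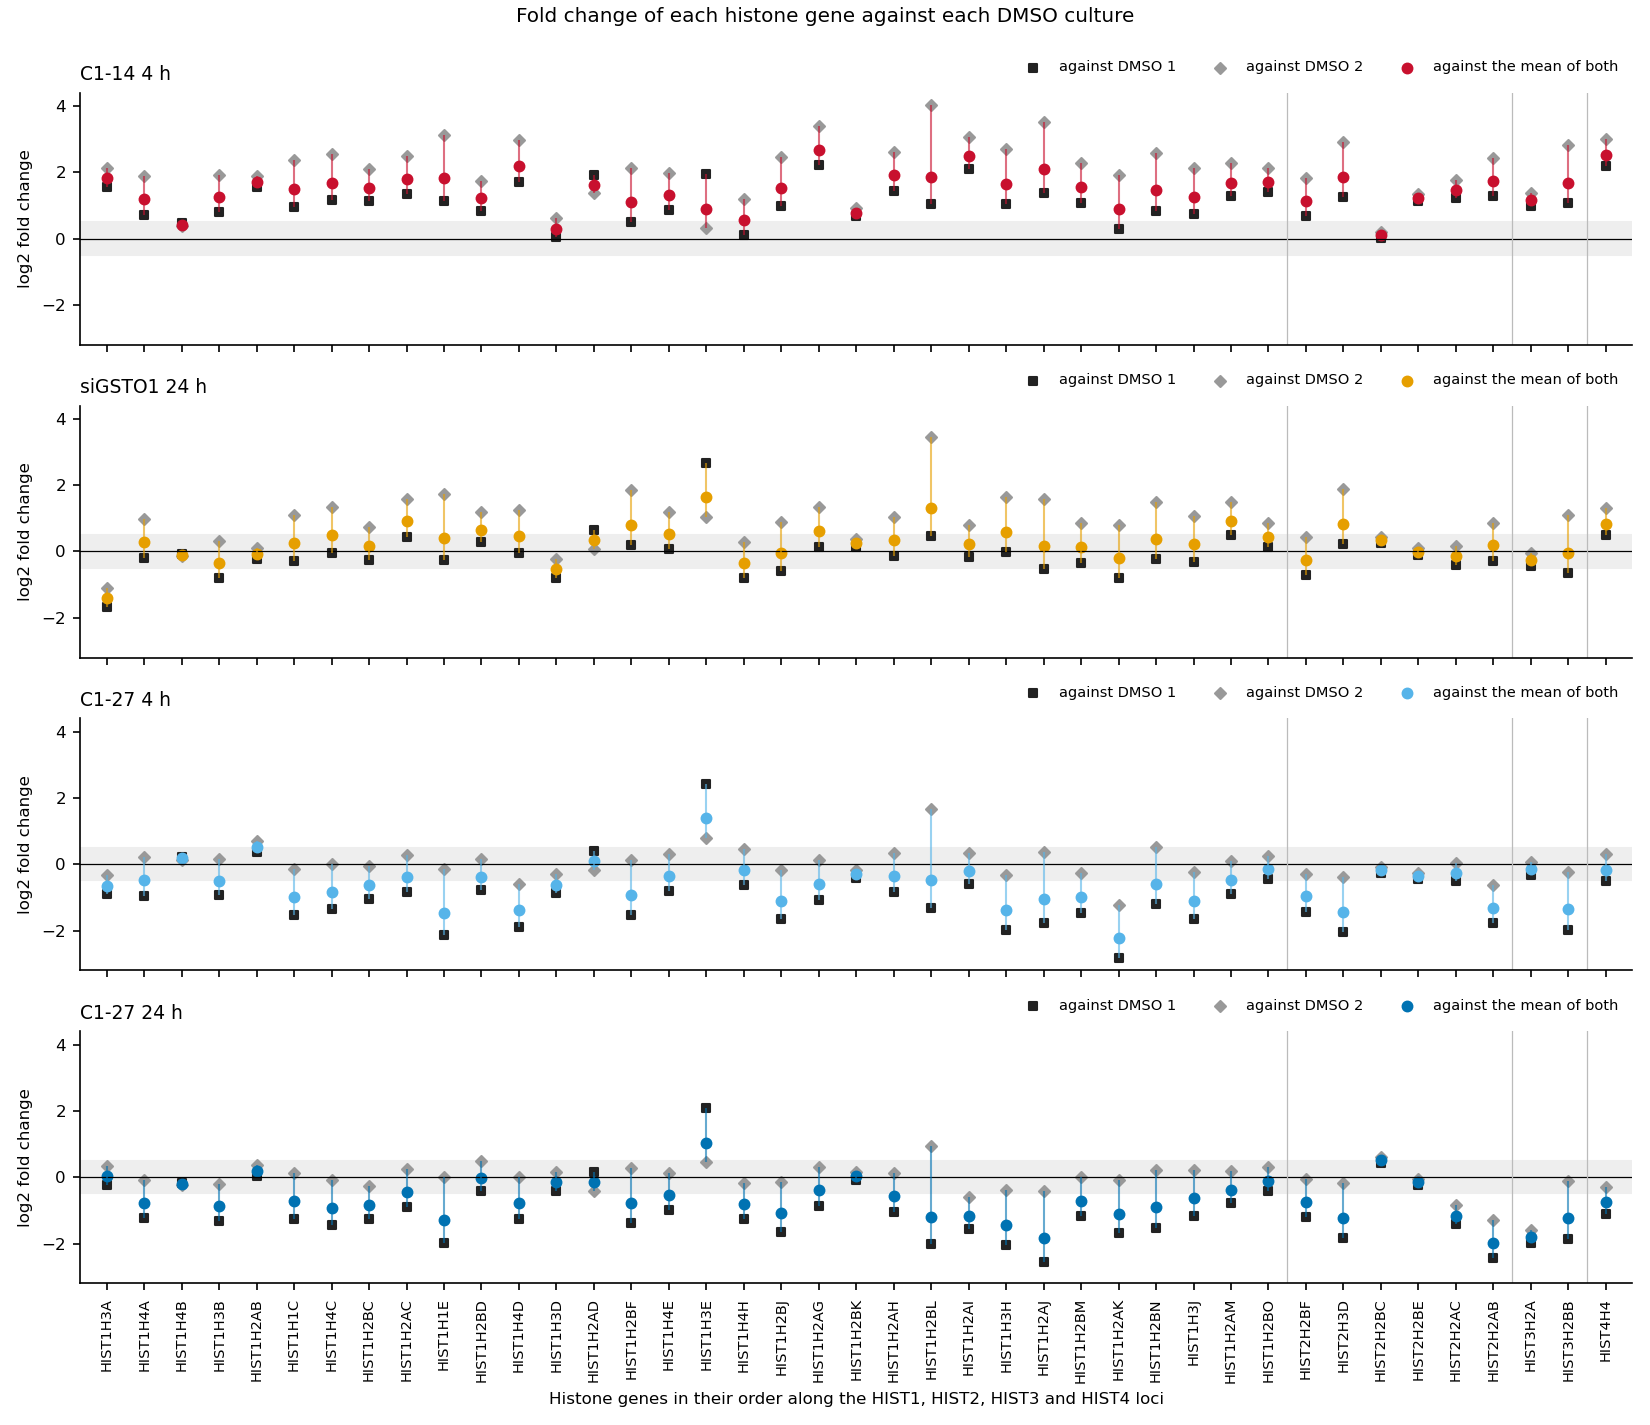
Log2 fold change of each histone gene, in order along the loci, against DMSO 1 (squares), DMSO 2 (diamonds) and the mean of both (circles), with 1 panel per treatment and no replicates for the treatments. With C1-14, 35 of 41 genes lie past 1.4-fold above both controls, whereas most C1-27 values lie below DMSO 1 and near DMSO 2.

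Tests were possible for siGSTO1 and C1-27 in edgeR, which took its spread from the DMSO cultures, shared it across genes and adjusted over all 14431 genes. None of the 41 histone genes in the fit passed an adjusted p of 0.05. With siGSTO1, 0 were called by edgeR, 1 of 41 had an unadjusted p under 0.05 (15.2% of all genes), and DESeq2 called 0, against 3.69% of all genes higher and 1.21% lower by edgeR. The gene was HIST1H2BL, at log2 1.48 ± 0.72 (SE, edgeR adjusted p = 0.292). With C1-27 at 4 h, 0 were called, 3 were lower at an unadjusted p under 0.05 (HIST1H1E, HIST1H1C and HIST1H2AK, where 0.797% of all genes were under 0.05 in either direction), and DESeq2 called 0, against 0.0208% of all genes higher and 0 lower. At 24 h, 0 were called, 4 were lower at an unadjusted p under 0.05 (HIST1H1E, HIST2H2AB, HIST1H1C and HIST1H2AJ, where 4.28% of all genes were under 0.05 in either direction), and DESeq2 called 0, against 0.194% and 0.166% of all genes. HIST1H1E was at log2 -1.34 ± 0.42 (SE) at 4 h and -1.26 ± 0.40 (SE) at 24 h, with edgeR adjusted p = 1.00 and 0.245. Tested directly between 24 h and 4 h of C1-27, 0 histone genes were called by edgeR and 0 had an unadjusted p under 0.05 (2.90% of all genes). These p-values rest on 1 residual degree of freedom, from DMSO cultures that themselves differed at most histone genes. The spread of each gene is drawn toward that of all genes, so an SE does not hold the gene's own DMSO gap in full. HIST1H1E, at 20.04 and 5.04 RPKM with DMSO, had an SE of only 0.40 at 24 h. A p that misses the threshold does not show that a gene was the same.

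The linker histones H1 had the largest gap between the DMSO cultures of the 5 classes. Summed H1 RPM was 41.4 in DMSO 1, 13.6 in DMSO 2, 84.6 with C1-14, 34.1 with siGSTO1, 12.5 with C1-27 at 4 h and 14.7 at 24 h. The DMSO mean was 27.5 ± 19.6 (SD, n = 2), and DMSO 1 exceeded DMSO 2 by 3.03-fold. C1-14 was 3.08-fold above the DMSO mean, 2.04-fold above DMSO 1 and 6.20-fold above DMSO 2. The share of H1 among histone reads was 23.3%, 24.0% and 21.3% in DMSO 1, C1-14 and siGSTO1, and 15.3%, 13.8% and 16.01% in DMSO 2 and the C1-27 libraries at 4 h and 24 h, so the 3 libraries with more histone reads also had the larger H1 share.

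HIST1H1C (H1.2, chr6:26055968-26056699 on the minus strand in hg19, a single exon) supplied 62.9% of the H1 counts. Its RPKM was 34.8 in DMSO 1, 13.2 in DMSO 2, 67.8 with C1-14, 28.6 with siGSTO1, 12.1 with C1-27 at 4 h and 14.6 at 24 h, which made it the histone gene with the highest value in C1-14. The fold with C1-14 was 2.82, with 1.95 and 5.13 against DMSO 1 and DMSO 2. HIST1H1E (H1.4, chr6:26156559-26157343, plus strand) was at 20.04, 5.04, 44.2, 16.7, 4.57 and 5.09 RPKM in the same order of libraries. Its C1-14 value was 3.52-fold above the DMSO mean, and its C1-27 value at 24 h was 0.254 of DMSO 1 but 1.01 of DMSO 2. HIST1H1T, a testis H1, had 3 and 0 counts with DMSO and 10 with C1-14, and it did not pass the RPKM filter. The other somatic H1 genes HIST1H1A, HIST1H1B and HIST1H1D had at most 1 count in any library.

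H2A, the core histone that pairs with H2B, had the highest fold of the class sums with C1-14 against the DMSO mean and DMSO 1, and H1 had the highest against DMSO 2. Summed H2A RPM was 23.4 and 12.02 with DMSO (17.7 ± 8.04, SD, n = 2), 65.2 with C1-14, 23.3 with siGSTO1, 13.5 with C1-27 at 4 h and 11.1 at 24 h. The C1-14 sum was 3.68-fold above the mean, 2.79-fold above DMSO 1 and 5.43-fold above DMSO 2. H2A made up 18.5% of histone reads with C1-14 and 12.1% to 14.9% in the other libraries.

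HIST1H2AG (chr6:27100817-27101314, plus strand), whose promoter is printed above, was at 4.38 RPKM in DMSO 1, 1.92 in DMSO 2, 20.2 with C1-14, 4.82 with siGSTO1, 2.09 with C1-27 at 4 h and 2.40 at 24 h. C1-14 lay far above the other 5 libraries, with folds of 6.40 against the mean and 4.60 and 10.5 against each DMSO culture. HIST1H2AI was at 2.95, 1.53, 12.7, 2.65, 1.95 and 1.00 RPKM, a C1-14 fold of 5.65, and only 37.8% of its 52-base windows occurred in no other gene, so its counts are uncertain. The same share was 16.4% for HIST1H2AJ, 13.7% for HIST1H2AM and 2.05% for HIST1H2AD, whose counts are uncertain too. HIST1H2AJ was at 4.15, 0.956, 10.8, 2.86, 1.23 and 0.713 RPKM, a C1-14 fold of 4.25, and HIST1H2AH, the member with the largest share of H2A counts (16.1%), at 8.92, 3.95, 24.1, 8.15, 5.02 and 4.34 RPKM, a fold of 3.74. HIST1H2AC and HIST1H2AM were the H2A genes with the higher folds in siGSTO1, at 1.87 and 1.89, and against DMSO 1 these came to 1.36 and 1.42. HIST1H2AB ran the other way in C1-27 at 4 h, at 3.78 RPKM against 2.92 and 2.29 with DMSO, a fold of 1.45. HIST1H2AD, counted over 82 bp of its span, was at 6.20, 9.14, 23.6, 9.65, 8.19 and 6.93 RPKM and so was higher in DMSO 2 than in DMSO 1.

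Several H2A genes were lower with C1-27 against both controls. HIST2H2AB (chr1:149859019-149859466, minus strand) was at 3.91 and 1.78 RPKM with DMSO, 9.53 with C1-14, 3.23 with siGSTO1, 1.15 with C1-27 at 4 h and 0.728 at 24 h. Its C1-27 values were 0.405 of the DMSO mean at 4 h and 0.256 at 24 h, and edgeR gave log2 -1.90 ± 0.79 (SE, adjusted p = 0.781) at 24 h. HIST2H2AC was at 6.46 and 4.38 RPKM with DMSO, 4.54 at 4 h and 2.44 at 24 h (0.450 of the mean). HIST3H2A had 12 and 16 counts with DMSO and 6 at 24 h, a pooled ratio of 0.299 with an exact 95% interval from 0.101 to 0.736 for counting error only. HIST1H2AK, at 2.60 and 0.856 RPKM with DMSO and 0.370 with C1-27 at 4 h, shares sequence with other copies and is uncertain.

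H2B, the partner of H2A, had a lower summed fold with C1-14 than H2A. Summed H2B RPM was 52.3 and 29.6 with DMSO (40.9 ± 16.1, SD, n = 2), 96.4 with C1-14, 51.6 with siGSTO1, 28.8 with C1-27 at 4 h and 33.5 at 24 h, and the C1-14 sum was 2.35-fold above the mean, with 1.84 and 3.26 against each culture. HIST1H2BC was at 11.2, 5.68, 24.4, 9.39, 5.47 and 4.70 RPKM in the order DMSO 1, DMSO 2, C1-14, siGSTO1, C1-27 at 4 h and C1-27 at 24 h. HIST1H2BF was at 9.15, 2.91, 12.8, 10.5, 3.19 and 3.52 RPKM, and its C1-14 value was 1.401-fold above DMSO 1 and 4.403-fold above DMSO 2. HIST1H2BL showed the widest gap between controls, 1.70 against 0.216 RPKM, with 3.50 in C1-14 and 2.35 in siGSTO1. HIST2H2BE (chr1:149856010-149858232) was steadier, at 1.52 and 1.32 RPKM with DMSO and 3.34 with C1-14, a fold of 2.35 with 2.19 and 2.52 against each culture.

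The H2B entries also held the long gene models. HIST1H2BK was counted over 8566 bp, overlaps HIST1H4I and supplied 25.4% of the H2B counts, with 27.3% of windows unique, and its RPKM ranged from 1.02 with C1-27 at 4 h to 2.14 with C1-14. HIST1H2BD, counted over 13228 bp, was at 0.734 and 0.391 RPKM with DMSO and 1.31 with C1-14. HIST2H2BF was counted over 386815 bp and did not pass the RPKM filter. With C1-14, HIST1H2BK, HIST1H2BD and HIST2H2BF held 636, 600 and 178 of the 3340 counts in the H2B sum. The size of the H2B sum beside the other classes therefore rests in part on these long models. HIST2H2BC, which GENCODE lists as a pseudogene, was at 1.45, 1.28, 1.47, 1.73, 1.20 and 1.95 RPKM and was the member that C1-14 moved least among those on chromosome 1, at 1.08-fold.

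H2A and H2B genes lie in divergent pairs, and 9 pairs had 10 counts or more for both genes, with gaps of 239 to 322 bp between the starts. With C1-14, both genes were at least 1.4-fold higher in 9 of 9 pairs, beside 37 of 41 of all histone genes. The H2A gene had the larger fold in 6 pairs with C1-14 and in 5 with siGSTO1. It did so in 5 and 3 with C1-27 at 4 h and 24 h, and in 4 in DMSO 2 against DMSO 1. Both genes of a pair were lower in 6 of 9 in DMSO 2 against DMSO 1, beside 33 of 40 of all histone genes. Both were lower in 3 with C1-27 at 4 h and in 4 at 24 h. These counts were not compared with those of unpaired genes. In 0 pairs were both at least 1.4-fold higher with siGSTO1, and in 0 pairs of any comparison were the genes past 1.4-fold in opposite directions. In the pair printed above, HIST1H2BJ was at 7.64 and 2.71 RPKM with DMSO and 14.9 with C1-14 (2.89-fold), beside 6.40-fold for HIST1H2AG. Members with the octamer had a median C1-14 fold of 3.08 (15 genes) and those without it 2.97 (22 genes). These medians were 2.42 and 2.06 against DMSO 1 and 4.34 and 5.13 against DMSO 2, so their order depended on the control.

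H3, the core histone with the most studied tail modifications, had the smallest fold of the class sums with C1-14 against the DMSO mean and DMSO 1, and H4 had the smallest against DMSO 2. By the median fold of members that passed the filter, H4 was lowest against the DMSO mean, at 2.49 beside 2.74 for H3. HIST1H3D, with a C1-14 fold of 1.23, held 252 of the 1337 H3 counts with C1-14, so the place of the H3 sum rests in part on it. Summed H3 RPM was 23.5 and 12.1 with DMSO (17.8 ± 8.06, SD, n = 2), 38.6 with C1-14, 15.7 with siGSTO1, 11.4 with C1-27 at 4 h and 12.4 at 24 h. The C1-14 sum was 2.162-fold above the mean, with 1.64 and 3.18 against each culture, and the siGSTO1 sum was 0.881 of the mean, 0.668 of DMSO 1 and 1.30 of DMSO 2.

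HIST1H3B (chr6:26031817-26032288, minus strand), with 38.4% of the H3 counts, was at 19.8, 9.21, 34.4, 11.5, 10.3 and 7.97 RPKM in the same order. HIST1H3A (chr6:26020718-26021186, plus strand) behaved differently in siGSTO1, at 0.743 RPKM against 2.38 and 1.60 with DMSO and 6.98 with C1-14. Its siGSTO1 fold was 0.374, with 0.313 and 0.466 against each culture, and the pooled ratio of its counts was 0.395 with an exact 95% interval from 0.168 to 0.785 for counting error only. HIST1H3E was lowest in DMSO 1, with 1.7 and 9.3 counts with DMSO and 9.8 to 15.4 in the treated libraries. HIST1H3D, counted over 2000 bp and sharing sequence with other copies, was at 3.53, 2.37, 3.63, 2.03, 1.93 and 2.65 RPKM. HIST1H3C had 0 counts in both DMSO libraries and 7 with C1-14. HIST1H2BB, an H2B gene, had 0 counts in both DMSO libraries and 6 with C1-14, and both genes are too low for a fold.

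H4, which pairs with H3, held highly transcribed genes that differed in their C1-14 folds. Summed H4 RPM was 36.7 and 21.6 with DMSO (29.1 ± 10.7, SD, n = 2), 68.0 with C1-14, 35.3 with siGSTO1, 24.1 with C1-27 at 4 h and 20.2 at 24 h, and the C1-14 sum was 2.33-fold above the mean, with 1.85 and 3.15 against each culture. HIST1H4E (chr6:26204873-26205249, plus strand) was at 29.9, 13.8, 54.4, 31.7, 17.0 and 15.1 RPKM, and HIST1H4C at 20.1, 7.73, 44.8, 19.4, 7.82 and 7.37 RPKM. In both, C1-14 was highest, DMSO 1 and siGSTO1 came next, and DMSO 2 and the C1-27 libraries were lowest.

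HIST1H4B (chr6:26027124-26027480, minus strand) did not. It was at 25.7 RPKM in DMSO 1, 27.3 in DMSO 2, 35.4 with C1-14, 24.7 with siGSTO1, 30.1 with C1-27 at 4 h and 23.1 at 24 h. The DMSO cultures differed little, and its fold with C1-14 was 1.33, with 1.37 and 1.30 against each culture. HIST1H4B supplied 30.2% of the H4 counts. HIST1H4D was at 6.52, 2.67, 21.1, 6.33, 1.76 and 2.71 RPKM, a C1-14 fold of 4.60. HIST4H4, the lone member on chromosome 12 (chr12:14923654-14924065, minus strand), had 12 and 12 counts with DMSO, 81 with C1-14 and 19 with siGSTO1, and its RPKM fold with C1-14 was 5.79. HIST1H4J and HIST1H4K share most of their sequence, so their counts are uncertain, and HIST1H4J was the only member passing the filter at 1.4-fold or more below the DMSO mean with C1-14, at 0.648, though at 1.67 against DMSO 2.

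**Figure D3:**
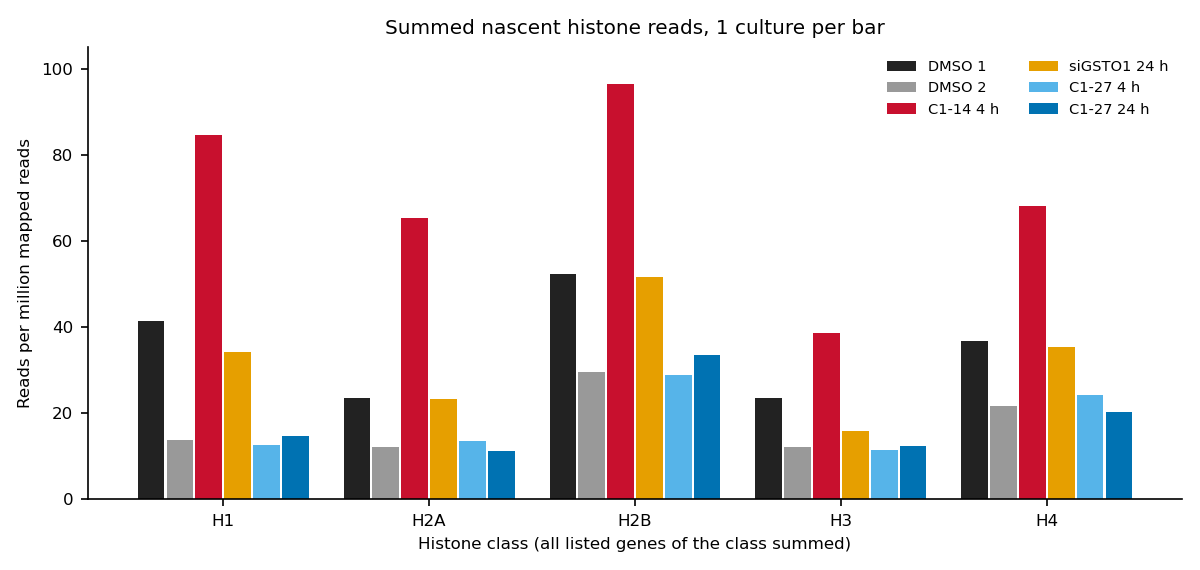
Summed RPM (reads-per-million mapped reads) of all listed histone genes of each class, with 1 bar per library and no error bars because each bar is 1 culture. C1-14 is the highest bar in every class, from 38.6 for H3 to 96.4 for H2B, and DMSO 1 is above DMSO 2 in every class. The H2B bars include the reads of the long gene models HIST1H2BK, HIST1H2BD and HIST2H2BF.

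The genomic clusters had similar C1-14 folds against the DMSO mean. The chromosome 6 sum was 162 and 79.8 RPM with DMSO, 320 with C1-14, 147 with siGSTO1, 82.2 with C1-27 at 4 h and 84.1 at 24 h, and the chromosome 1 sum was 14.7, 8.89, 30.0, 11.9, 7.81 and 7.52 in the same order. C1-14 was 2.65-fold above the DMSO mean on chromosome 6 and 2.54-fold on chromosome 1, and chromosome 6 held 89.7% to 92.1% of histone reads in every library. The C1-14 folds on chromosomes 6 and 1 were 1.98 and 2.04 against DMSO 1 and 4.02 and 3.37 against DMSO 2. With siGSTO1 they were 1.22 and 1.01 against the DMSO mean. The 3 groups of genes separated by gaps along chromosome 6 (35, 5 and 16 entries, in hg19 order) had C1-14 folds of 2.56, 2.63 and 3.15. HIST2H2BE supplied 28.3% of the chromosome 1 counts. The HIST3 genes were at 0.496 RPM with C1-27 at 24 h against 1.84 and 0.784 with DMSO, a fold of 0.378.

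**Figure D4:**
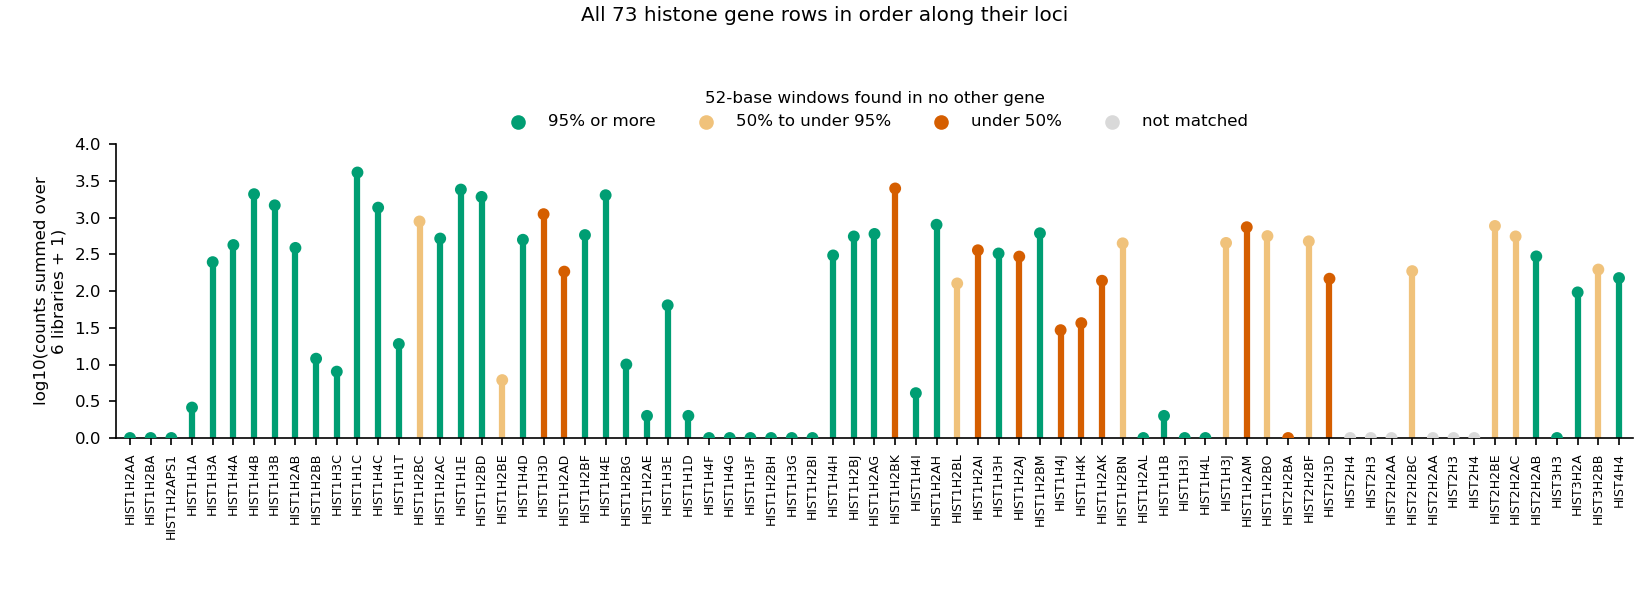
Counts summed over the 6 libraries, as log10 of the sum plus 1, of all 73 histone gene entries in order along their loci, with the fill giving the share of 52-base windows found in no other gene. Runs of entries at or near 0 lie beside entries with high counts, and many of them have nearly all windows unique.

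Entries at or near 0 were not spread evenly along the clusters. From HIST1H1D to HIST1H2BI, 7 neighbouring entries over 39.2 kb (chr6:26234440-26273640) had 1 count in all over the 6 libraries, although the share of their 52-base windows found in no other gene was 97.9% or more. The run is flanked by HIST1H3E and HIST1H4H, with 62.9 and 303.7 counts. A second run of 4, from HIST1H2AL to HIST1H4L over 8.2 kb (chr6:27833107-27841289), had 1 count with 97.1% or more of windows unique, beside HIST1H2BN and HIST1H3J with 444.3 and 449.9 counts. On chromosome 1, HIST2H4, HIST2H3 and HIST2H2AA were at 0 at both of their listed positions, and the GENCODE copies of these genes (listed there under longer names) had 0 to 2.92% of windows unique. HIST2H2BA and HIST3H3 were also at 0. Of 24 entries with at most 1 count in every library, 17 had at least 95% of windows unique, and the 6 repeated entries and 1 other were under 50%. Of the 44 entries with 10 counts or more, 24 had at least 95% and 10 were under 50%.

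Reads on the antisense strand did not follow. Over 68 short entries, antisense RPM was 1.34 and 1.04 with DMSO, 1.29 with C1-14 (95% Poisson interval 0.938 to 1.72 for counting error only), 1.38 with siGSTO1, 1.24 with C1-27 at 4 h and 1.62 at 24 h. The antisense share of these reads was 0.411% with C1-14 and 0.871% to 2.20% in the other libraries.

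Histone variants with polyadenylated transcripts, which are made outside S phase as well, were measured in 12 genes. With C1-14, 5 of 10 that passed the filter were at least 1.4-fold higher and 0 lower. H1F0, the linker variant of resting cells, was at 6.23 and 4.34 RPKM with DMSO, 9.10 with C1-14 and 12.2 with siGSTO1, and passed in siGSTO1 at log2 1.11 ± 0.32 (SE, edgeR adjusted p = 0.0179). H2AFX, H2AFZ and H3F3B had C1-14 folds of 2.09, 1.84 and 1.73, and H3F3A, which encodes the same H3.3 protein as H3F3B, had 1.23. In C1-27, 1 of 10 variants was lower at each time and 0 were higher.

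Among 19 genes that make or process histone transcripts, 0 were past 1.4-fold with C1-14, with a median log2 fold of -0.03 beside 1.56 for the histone genes and 0.01 for all genes. SLBP was at 5.57 and 5.59 RPKM with DMSO and 5.76 with C1-14, and NPAT at 1.65, 1.53 and 1.505. With siGSTO1, 1 was higher and 3 were lower, among them CDC25A, a phosphatase that activates cyclin-dependent kinases, at log2 -0.84 ± 0.26 (SE, edgeR adjusted p = 0.0283). With C1-27, 2 of 19 were lower at 4 h and 1 at 24 h, and 4 of 19 were lower in DMSO 2 than in DMSO 1, with 0 higher in each of these.

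S phase and DNA replication genes moved in another treatment. With C1-14, 0 of 28 were past 1.4-fold, with a median log2 fold of -0.01. With siGSTO1, 14 of 28 were lower and 0 higher, and edgeR called 6 of them lower, with MCM4, MCM5 and MCM6 of the helicase and UHRF1 among them. UHRF1, which maintains DNA methylation at replication, was at log2 -1.08 ± 0.26 (SE, edgeR adjusted p = 0.00183), and MCM4, a subunit of the replicative helicase, at -0.85 (adjusted p = 0.0268). In the same library 12 of 42 histone genes were at least 1.4-fold above the DMSO mean and 3 as far below, and 3 were higher against both DMSO cultures. Of 20 G2 and M phase genes, 0 were past 1.4-fold in any treatment. Of the histone chaperones, 0 of 17 were past 1.4-fold with C1-14, 2 of 18 were lower with siGSTO1, and edgeR called 0 in each tested treatment.

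**Figure D5:**
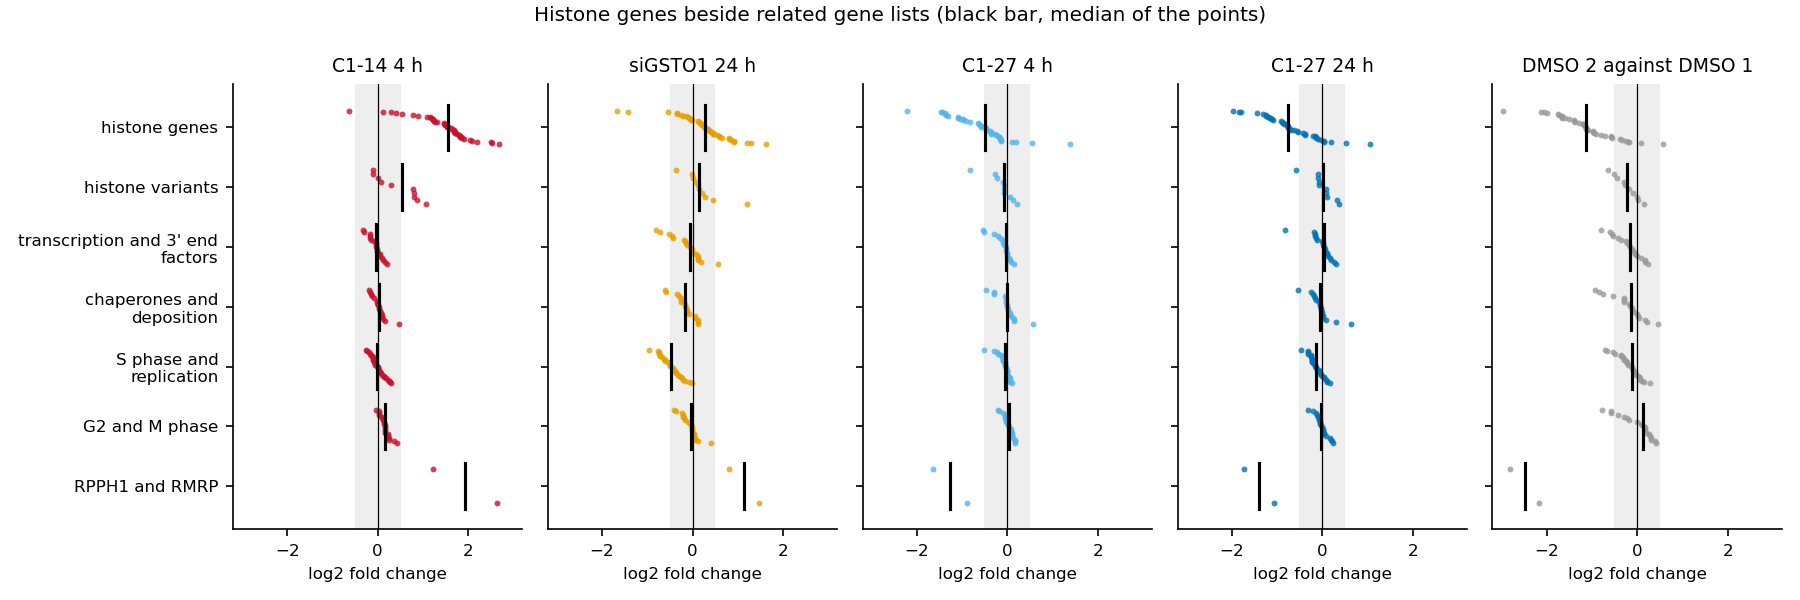
Log2 fold changes of single genes against the DMSO mean, with the last panel giving DMSO 2 against DMSO 1, for histone genes and related lists, with black bars for medians. With C1-14 the histone genes have a median of 1.56 while S phase genes are at -0.01, and in the DMSO panel the histone median is -1.14.

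Some other short transcripts differed between the same libraries. Of 24 other genes of histone length that passed the filter with C1-14, 10 were higher and 5 lower, with a median log2 fold of 0.27, and between the DMSO cultures 13 of 24 were lower in DMSO 2 and 3 higher. Noncoding RNAs above 300 bp on the list of short transcripts without poly(A) tails were higher in 5 of 10 and lower in 1 with C1-14, higher in 5 of 9 with siGSTO1, lower in 5 with C1-27 at each time, and lower in 6 of 9 in DMSO 2 against DMSO 1. The list without the size filter, mostly shorter RNAs, did not share this, with 34 of 250 higher and 55 lower with C1-14 (median log2 fold -0.11) and 36 higher and 40 lower with C1-27 at 4 h. RPPH1, the RNA of ribonuclease P, was at 172 RPKM in DMSO 1, 38.5 in DMSO 2, 654 with C1-14, 293 with siGSTO1, 56.7 with C1-27 at 4 h and 50.3 at 24 h, so that C1-14 was again highest, DMSO 1 and siGSTO1 intermediate, and DMSO 2 and both C1-27 libraries lowest. Its C1-14 fold was 6.21. RPPH1 passed the test in siGSTO1 at log2 1.41 ± 0.24 (SE, edgeR adjusted p = 1.98e-06) and in C1-27 at 24 h at -1.07 ± 0.27 (edgeR adjusted p = 0.0262), although its 24 h value was 0.293 of DMSO 1 and 1.31 of DMSO 2. The siGSTO1 value of RPPH1 was 1.70 of DMSO 1 and 7.61 of DMSO 2, a gap that the SEs do not hold in full. The part of transcript length and of missing poly(A) tails in the histone values was not tested.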

How the data were processed

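Bru-seq libraries were made from 6 HCT116 cultures, 1 each, with replicates (2) for DMSO only. Each deposited file gave, by gene and strand, expected counts over exons and introns that are not normalized and not all whole, a signal (the count per bp, used only to recover mapped totals of 23388425 to 46017051 reads), and RPKM values scaled by the authors to gene length and mapped reads. The submitters' processing notes name CASAVA 1.8.2, Bowtie 0.12.8, TopHat 1.4.1, bedtools 2.16.2 and hg19, and file positions are given in hg19. How reads matching several copies were counted is not given in the sources used here.

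The members and lists were chosen with earlier results of these data known. Folds were treated RPKM over the mean DMSO RPKM with no pseudocount. Genes entered at a size above 300 bp and a mean of treated and control RPKM above 0.5, and were counted at 1.4-fold. Rounded counts of genes with at least 10 counts in at least 2 libraries were fitted in edgeR 4.0.16 (R 4.3.3) with TMM and its quasi-likelihood test, adjusted by Benjamini-Hochberg across 14431 genes, with 1 residual degree of freedom and a common dispersion of 0.0381. DESeq2 1.42.0 was the alternative. C1-14 was fitted but not tested. Ratios of low counts have exact 95% intervals, which cover counting error only. The fit was tested on simulated data with a smaller dispersion than the one fitted here. That check does not show how the fit performs at the spread of these libraries. Other tools were Python 3.11.15, numpy 2.4.6, pandas 2.3.3, scipy 1.17.1 and matplotlib 3.10.9.

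The genes to name were, by rule, the 2 with the highest DMSO RPKM in each class, up to 5 per treatment and direction past 1.4-fold against each DMSO culture, those in the study's lists of strongest changes (picked on these libraries and so not independent), and every member outside chromosome 6. HIST1H2AB, HIST1H1T, HIST1H3C, HIST1H3D, HIST1H2BB, HIST1H2BD, HIST1H2BK and the genes of the runs near 0 were named after their values were seen. Promoter sequences are from RefSeq (GRCh38.p14) and stem loops from GENCODE (GRCh38). Window uniqueness was computed over 52-base windows of GENCODE transcripts. It covers the GENCODE model and not the counted span, and a shared window may lie in an overlapping transcript of another gene. Alternatives were each DMSO culture alone, TMM or DESeq2 library sizes, a pseudocount of 0.1 RPKM, other filters, and top or long members left out.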

Additional observations from a re-analysis of the deposited data

How the results depend on the processing

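The DMSO culture decided most counts. With either DMSO culture left out and the filter recomputed, the number of histone genes past 1.4-fold ranged for C1-14 from 35 to 38 higher and 0 to 1 lower, for siGSTO1 from 4 to 28 higher and 1 to 9 lower, for C1-27 at 4 h from 1 to 3 higher and 3 to 32 lower, and for C1-27 at 24 h from 0 to 1 higher and 4 to 30 lower. Over all alternatives the C1-14 count of higher genes ranged from 34 to 42. Shares over all genes were not computed for these alternatives. With the main filter those shares also depended on the control. With siGSTO1, 9.02% of all genes were higher against DMSO 1 and 18.2% against DMSO 2. With C1-27 at 4 h, 11.2% were lower against DMSO 1 and 0.417% against DMSO 2. With mean RPKM above 1, C1-14 had 0 lower, C1-27 at 4 h had 1 higher and C1-27 at 24 h had 1 higher, and with TMM or DESeq2 library sizes C1-27 at 24 h had 0 higher. Histone calls by edgeR were 0 under DESeq2, RLE normalization and no low-count filter as well.

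Of the class and cluster sums past 1.4-fold against the DMSO mean, 4 were on the other side of DMSO when DMSO 1 was left out. Their ranges over the single controls were 0.356 to 1.08 for H1 and 0.527 to 1.02 for H3 with C1-27 at 24 h. For chromosome 6 they were 0.507 to 1.03 and 0.519 to 1.05 with C1-27 at 4 h and 24 h. Sums nearer the DMSO mean were not counted in this way, and several of them also lay below DMSO 1 and above DMSO 2. With C1-27 these were H2A (0.576 to 1.12) and H4 at 4 h, and H2B at 24 h. With siGSTO1 every class and cluster sum did so, for example H4 (0.962 to 1.63). A fold of a single gene was counted as turned if it was past 1.4-fold against the DMSO mean and crossed 1 under an alternative. Of 140 folds, 17 turned with a DMSO culture left out, and 0 did under TMM or the pseudocount. With C1-27 at 4 h these were HIST1H3B (0.522 to 1.12), HIST1H4C (0.390 to 1.01), HIST1H2BF (0.348 to 1.09), HIST1H2AG (0.478 to 1.09), HIST1H2AJ (0.296 to 1.28) and HIST1H2BN (0.435 to 1.45). At 24 h they were HIST1H1C (0.419 to 1.102), HIST1H1E (0.254 to 1.01), HIST1H4D (0.416 to 1.02), HIST1H2BF (0.385 to 1.21), HIST1H4E (0.504 to 1.097), HIST1H2AH (0.487 to 1.1004), HIST1H2BL (0.247 to 1.94), HIST1H2BN (0.348 to 1.16) and HIST1H3J (0.445 to 1.17). The others were HIST1H3H with siGSTO1 (0.982 to 3.11) and HIST1H4J with C1-14 (0.402 to 1.67). The cause was not tested.

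No paired analysis was possible because each treatment has 1 culture, whose label carries no replicate number, so that fewer than 2 numbers are shared with DMSO. With 1 culture per treatment and 1 residual degree of freedom, an effect of the size of the gap between the DMSO cultures could not be told from culture variation.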
